A study of Trichoderma reesei QM6a with 4 samples.

Results

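The genes described here code for enzymes that take galactose and mannose units off plant polysaccharides in the filamentous fungus Trichoderma reesei: 8 alpha-galactosidases of glycoside hydrolase families GH27 and GH36, the beta-galactosidase bga1 and the mannanase man1. They were chosen by name, as every array feature carrying 1 of these 10 locus numbers, and made up 10 of the 9127 genes and 50 of the 43565 probes on the array, with 5 probes each. Total RNA from mycelium was hybridised to 4 one-colour Agilent arrays (Cy3 label), 2 for the wild type and 2 for the mutant AT01, which the labels describe as accumulating copper strongly; its mutation is not given in the sources used here. Every culture, the wild-type controls included, had 1 mM CuSO4 in its YPD (yeast extract, peptone and glucose) and was harvested on day 5 at 25 °C, so there was no group without copper. Whether the 2 arrays per strain stand for separate cultures is not said in the labels, and the p-values measure the spread between arrays, which may be technical.

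Galactomannan is a chain of beta-linked mannose that carries single alpha-linked galactose units. Alpha-galactosidases remove those galactose units, and mannanases such as man1 cut the chain itself. The beta-galactosidase bga1 releases terminal beta-linked galactose and hydrolyses lactose, a sugar that induces the cellulase genes of this fungus. Hydrolase genes of this kind are known to be kept low on glucose and to depend in large part on the activator xyr1. The array annotation gives loci by number only, and 1 of the 10, man1, has a symbol in the reference table, man5a; the table does not divide the 8 alpha-galactosidase loci between the families.

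Most of these genes gave little signal in either strain. A probe was taken as measured on an array when the scanner software called it well above background. Of the 50 probes, 8 (16%) were well above background on all 4 arrays, against 43.1% of all probes, and 34 (68%) were so on no array, against 35.2% of all probes. In the order of the arrays, wild-type 1 and 2 and then AT01 1 and 2, 10, 8, 13 and 14 of the 50 probes were measured. The AT01 arrays were brighter throughout: the 75th percentile of the processed signal, a background-subtracted intensity on a linear scale, was 20.9 and 22.2 for the wild type and 41.5 and 39.6 for AT01. All 4 files carry the same scan time. As a check of the tissue label, the glycolysis gene gpd1 was well above background with 5 probes on every array, and the hydrophobin genes hfb1 and hfb2 with 4 probes and with 1 or 2 probes. The other 3 marker genes, for actin, elongation factor and the conidial pigment, were not matched by symbol.

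**Figure D1:**
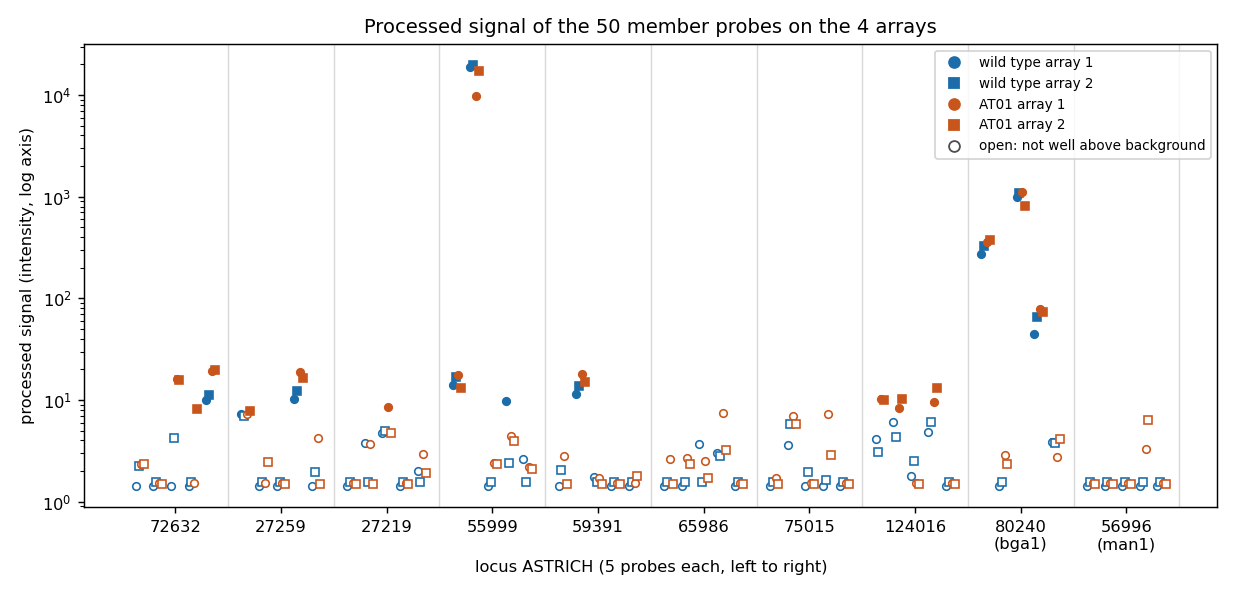
Processed signal (intensity, log axis) of each of the 5 probes of the 10 loci on the 2 wild-type arrays (blue) and the 2 AT01 arrays (orange), with filled points for probes well above background on that array. Most points are open and lie near the lowest signal the software gives, 1.42 to 1.57, while 3 probes of bga1 and 1 probe of ASTRICH55999 stand far higher on all 4 arrays.

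The design sets the mutant against the wild type in copper medium, and the comparison asked which of these genes differed. Of the 10 genes, 4 fell in AT01 (bga1 and the alpha-galactosidase loci ASTRICH55999, ASTRICH59391 and ASTRICH27259), 0 rose, 2 were tested and not called, and 4 were too dim to test. Values were log2 signals minus each array's 75th percentile, averaged over the probes of a gene, and a call needed an adjusted p under 0.05 in limma with Benjamini-Hochberg adjustment over all 8018 genes tested, which had a probe measured on both arrays of 1 strain or both. Without adjustment, 5 members had a limma p under 0.05 for a fall and 0 for a rise. Shares of all genes at that unadjusted threshold were not worked out. Falls were common on these arrays: by adjusted p 30.4% of all genes tested fell and 14.0% rose, so 4 falls among 6 members stand against a high background. The median log2 difference of the 6 tested members was -0.61, against -0.23 over all genes tested; 5 of the 6 passed through both strains and 1, ASTRICH124016, through AT01 alone. Both AT01 arrays lay below both wild-type arrays in 5 of the 6, as in 51.4% of all genes tested. With quantile normalization, or with cyclic loess, 0 of the 10 were called in either direction by limma, where 9.09% and 9.68% of all genes fell. Unadjusted, 2 and 1 members then had a limma p under 0.05 for a fall, again without a share of all genes to set beside them. In these total RNA samples fewer cells that express a gene and less RNA per cell cannot be told apart.

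**Figure D2:**
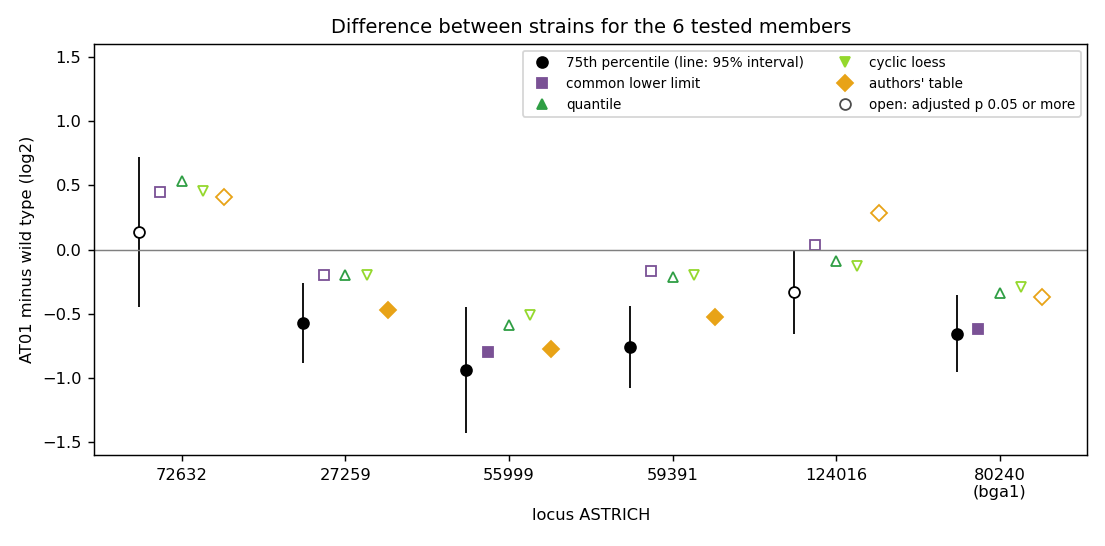
AT01 minus wild type (log2) for the 6 tested members with 75th percentile scaling (black, with its 95% interval from limma) and under 4 other treatments of the values, filled where the adjusted p was under 0.05. The fall of ASTRICH55999 and of bga1 is filled also with the common lower limit, no quantile or cyclic loess point is filled, and ASTRICH124016 lies on both sides of 0.

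The gene bga1 was the best measured of the set, with 3 of its 5 probes well above background on all 4 arrays. Its probe 3 had processed signals of 983 and 1094 in the wild type and of 1109 and 817 in AT01. Probe 1 read 273 and 326 in the wild type against 362 and 375 in AT01. Probe 4 read 44.8 and 65.4 against 78.7 and 74.0. As unscaled signals, probes 1 and 4 were thus higher in AT01 on both arrays and probe 3 overlapped between the strains, while the AT01 arrays as a whole were brighter. Averaged over its 5 probes and scaled, bga1 stood at 0.81 and 0.93 in the wild type and at 0.20 and 0.24 in AT01, so that the strains did not overlap. The log2 difference was -0.65 ± 0.12 (SE, n = 2 arrays per strain; 95% interval -0.96 to -0.35; limma adjusted p = 0.0111).

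Fitted each on its own among 25102 probes, the 3 measured probes of bga1 all pointed down but by different amounts. Probe 3 fell by 1.04 ± 0.19 on the log2 scale (limma adjusted p = 0.0201) and probe 1 fell by 0.61 ± 0.16 (adjusted p = 0.0412). Probe 4, at -0.42 ± 0.20 (adjusted p = 0.172), was not called. Of all probes tested in this way 17.2% fell and 15.2% rose. The call of bga1 as a gene held when dim probes were given a common lower limit (-0.62, limma adjusted p = 0.0127), where 14.9% of all genes fell. It was lost with quantile normalization (-0.34, adjusted p = 0.116), with cyclic loess (-0.29, adjusted p = 0.140) and in the authors' deposited table (-0.37, adjusted p = 0.0733).

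Among the alpha-galactosidases, ASTRICH55999 had the most signal, nearly all of it from 1 probe. Its probe 2 read 19031 and 19716 in the wild type and 9695 and 17131 in AT01. Its probe 1 read 13.9 and 16.8 against 17.5 and 13, and the remaining 3 probes never passed 9.88. Both measured probes, scaled, lay lower on both AT01 arrays, and the AT01 arrays were far apart on probe 2. The gene as a whole stood at 0.26 and -0.29 in the wild type and at -0.99 and -0.91 in AT01, a log2 difference of -0.93 ± 0.20 (95% interval -1.43 to -0.44; limma adjusted p = 0.0157). Probe 2 fell by 1.5 ± 0.32 on the log2 scale (adjusted p = 0.0273) and probe 1 fell by 0.93 ± 0.19 (adjusted p = 0.0254).

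The fall of ASTRICH55999 was not seen on the bright probe alone, since probe 1, fitted on its own, was called too. Without the bright probe the log2 difference was -0.79 (limma adjusted p = 0.0374), an alternative chosen after the values were seen. Besides probe 1, that average holds 3 probes not measured on both arrays of either strain. After scaling the lowest signal itself lay lower in AT01, so the average is no support for the fall. The call of the gene was lost with quantile normalization (-0.58, adjusted p = 0.105) and cyclic loess (-0.51, adjusted p = 0.109). It was lost as well without AT01 array 1 (-0.89, adjusted p = 0.0631) or AT01 array 2 (-0.98, adjusted p = 0.0610). With quantile normalization probe 1 was the only member probe still called, at -0.93 (limma adjusted p = 0.0322), against 8.52% of all probes falling.

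The loci ASTRICH59391 and ASTRICH27259 were each measured on all arrays by a single probe. For ASTRICH59391 that probe read 11.4 and 13.7 in the wild type and 17.9 and 14.9 in AT01. The gene's scaled values were -3.22 and -3.12 against -3.84 and -4.01, with no overlap, and its log2 difference was -0.76 ± 0.13 (limma adjusted p = 0.00906). The measured probe alone differed by -0.53 ± 0.17 (adjusted p = 0.0663), not called among the 25102 probes. The same difference was called when every gene was averaged over its measured probes (adjusted p = 0.0457), and the authors' deposited table gave a called -0.53 (adjusted p = 0.0387).

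For ASTRICH27259 the probe measured on all arrays read 10.3 and 12.2 in the wild type and 19.0 and 16.5 in AT01. The gene's scaled values were -2.83 and -2.73 against -3.29 and -3.42, again with no overlap, and the log2 difference was -0.57 ± 0.13 (limma adjusted p = 0.0172). Its measured probe alone, probe 4, at -0.25 ± 0.16 (95% interval -0.66 to 0.15; adjusted p = 0.257), was not called, while the gene was called in the authors' deposited table (-0.47, adjusted p = 0.0289). Of this locus the authors' values cover only probes 1 and 4. Probe 1 was not well above background on wild-type array 2 or AT01 array 1. It read 7.29 and 7.04 in the wild type and 7.28 and 7.75 in AT01, so the strains overlapped unscaled.

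The dim probes of these 2 loci carried most of both falls, since in each the probe measured on all arrays fell by less than the average. The lowest signal the software writes is nearly the same on every array, and after scaling it lay 0.89 lower on the AT01 arrays than on the wild-type arrays (log2, difference of the means of 2 arrays). Of the 5 probes of ASTRICH59391, 3, 3, 2 and 3 stood at that limit on the 4 arrays, and of those of ASTRICH27259, 3, 2, 2 and 2. With a common lower limit on all arrays both calls ended, at -0.17 (limma adjusted p = 0.290) for ASTRICH59391 and at -0.20 (adjusted p = 0.229) for ASTRICH27259. Quantile normalization gave -0.22 (adjusted p = 0.279) and -0.19 (adjusted p = 0.366). The call of ASTRICH27259 was also lost without wild-type array 2 (-0.52, adjusted p = 0.0629) or AT01 array 2 (-0.51, adjusted p = 0.0788).

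The 2 tested members that were not called differed from these in where they were detected. ASTRICH72632 had 1 probe measured on each wild-type array and 2 and 3 probes on the AT01 arrays. Its probe 5 read 10.1 and 11.2 in the wild type and 19.2 and 19.8 in AT01, and after scaling the strains overlapped (-1.05 and -0.98 against -1.11 and -1.0; log2 difference -0.04 ± 0.15, limma adjusted p = 0.848). Its probe 3 read 1.42 and 4.23 in the wild type, not well above background, and 16.3 and 15.9 in AT01. On this probe AT01 was at least 1.15-fold higher (limma adjusted p = 0.0494, and 0.0865 with quantile normalization). The probe entered the fit through AT01 alone and its wild-type values are unmeasured, so neither the bound nor that p is support for a rise. The bound sets the mean AT01 level against the lowest signal that counted as well above background on each wild-type array, or the probe's own signal where higher.

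As a gene, ASTRICH72632 stood at -3.31 and -2.87 in the wild type and at -3.22 and -2.68 in AT01, which overlap. Its log2 difference was 0.14 ± 0.24 (95% interval -0.45 to 0.72; limma adjusted p = 0.655).

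ASTRICH124016 had no probe measured in the wild type, whereas 3 of its 5 probes were measured on each AT01 array. The 3 probes read between 3.10 and 6.06 in the wild type and between 8.29 and 13.1 in AT01. As unscaled signals none of them overlapped, and 79.2% of all probes tested were likewise higher on both AT01 arrays. The 3 probes entered the fit through AT01 alone, so their higher signals there are no support for a rise. The gene's scaled values ran the other way, at -2.73 and -2.81 against -3.20 and -2.99, and its log2 difference of -0.33 ± 0.13 was not called (95% interval -0.65 to -0.00057; limma adjusted p = 0.0914). No bound above 1-fold could be given. With normexp background correction, which shrinks the differences of dim genes, it was called lower (-0.19, limma adjusted p = 0.0182), and in the authors' deposited table it lay at 0.29 (adjusted p = 0.173). Detection in AT01 alone is no rare state on these arrays: 9.02% of all probes were well above background on both AT01 arrays and on no wild-type array, against 0.170% the other way round, and the brightness of the arrays moved with it, whose part was not tested.

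**Figure D3:**
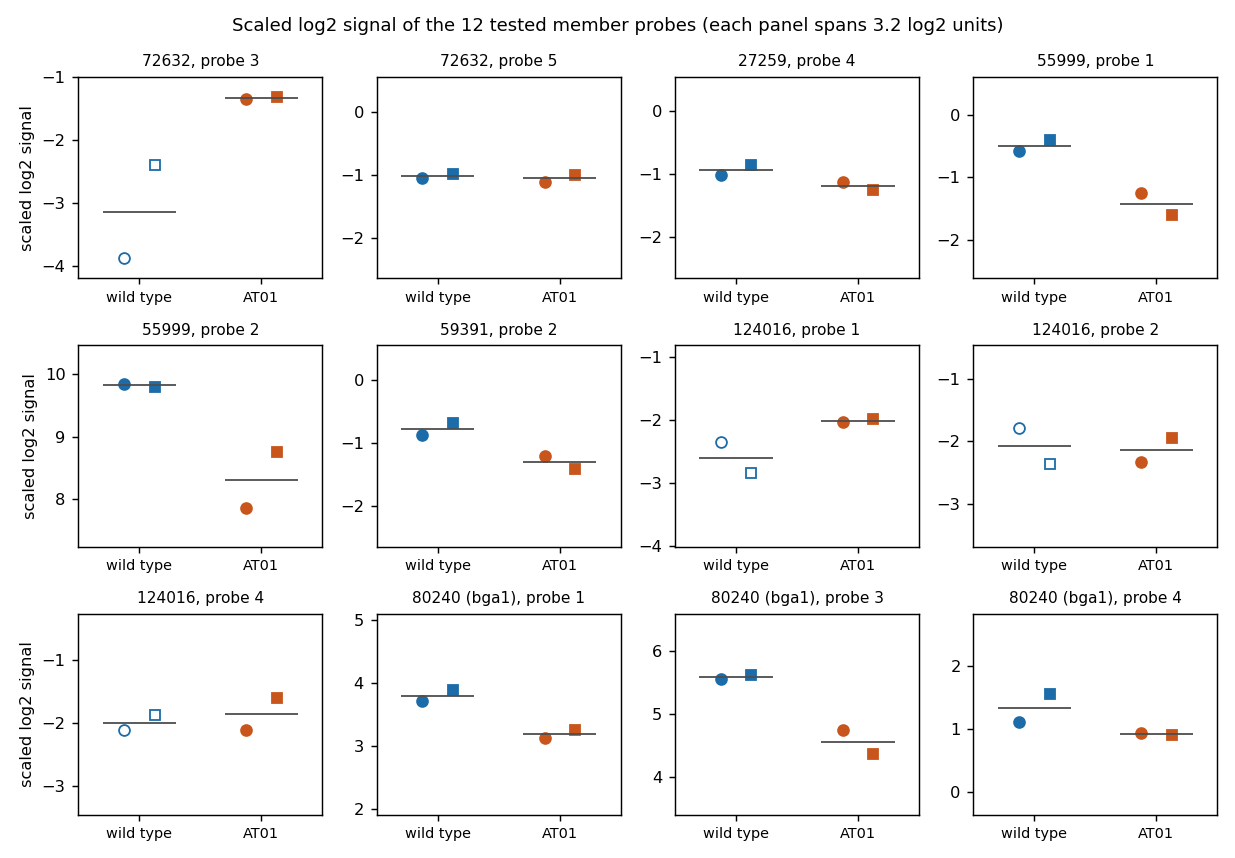
Scaled log2 signal of the 12 member probes measured on both arrays of 1 strain or both; points are arrays (filled where well above background), lines are strain means, and every panel spans 3.2 log2 units. AT01 lies below the wild type without overlap in 7 panels, above it in 2 (probe 3 of ASTRICH72632 and probe 1 of ASTRICH124016), and overlaps it in 3. Both probes on which AT01 lies above entered through AT01 alone.

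Across the 12 tested member probes the picture thus depended on the scaling. As unscaled signals 9 were higher on both AT01 arrays than on both wild-type arrays, 1 was lower and 2 overlapped, and 79.2% of all probes tested were higher in this sense. After scaling 2 lay higher, 7 lower and 3 overlapped, against 32.9% and 39.2% of all probes tested lying higher and lower. Of the 12 probes, 4 entered through AT01 alone. All 4 were among the 9 that were higher unscaled, and both that lay higher after scaling were among the 4. No rise is read from them. Among the 12 probes 4 falls were called, where 17.2% of all probes tested fell. All 4 were among the 8 probes measured on all 4 arrays. With quantile normalization 1 fall was called, where 8.52% of all probes tested fell. The 4 falls came from only 2 genes, and probes of a gene share its RNA.

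The mannanase gene man1 was not measured in either strain. All 5 of its probes stood at the lowest signal on both wild-type arrays, and 4 of 5 did on both AT01 arrays. Its remaining probe read 3.30 and 6.31 there, not well above background. A difference in man1 was therefore not detectable on these arrays.

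The other 3 genes too dim to test were the alpha-galactosidase loci ASTRICH27219, ASTRICH65986 and ASTRICH75015. ASTRICH27219 had 1 probe well above background on AT01 array 1, at 8.58, where the same probe read 4.74 and 4.91 on the wild-type arrays and 4.79 on AT01 array 2. No probe of ASTRICH65986 was measured on any array, and its highest signals were 3.68, 2.82, 7.42 and 3.21 on the 4 arrays. ASTRICH75015 was likewise unmeasured, with highest signals of 3.61, 5.80, 7.21 and 5.85. On the array as a whole 12.2% of genes were too dim to test. The scaled values of all 4 untested genes lay lower in AT01, as the lower limit itself did, and no change is read from them.

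Some of the loci lie near one another in the reference order of strain QM6a. ASTRICH55999 and ASTRICH75015 have 2 loci between them; the first was bright on 1 probe and the second was not measured. ASTRICH27259 and ASTRICH124016 have 25 loci between them, and ASTRICH72632 and man1 have 40.

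For each called member the 3 genes with a symbol whose pattern over the 4 arrays was most alike were taken, by the Euclidean distance between log2 values centred on each gene's mean. For bga1 they were the chitinase gene chi18-14, the ribosomal protein gene rpl15 and ugp1, at distances of 0.059, 0.075 and 0.082. For ASTRICH27259 they were zwf1, ino1 and cel7a (0.11, 0.11 and 0.12), and for ASTRICH59391 cel61a, gbg1 and rps26 (0.11, 0.12 and 0.14). The likest to ASTRICH55999, acl2, hfb3 and met2, lay farther off (0.19, 0.20 and 0.23). With 4 arrays in 2 groups such a distance reflects little more than the size of the strain difference.

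Genes that use the released galactose, or that belong to the same set of hydrolases and regulators, showed falls as well and no rise. Of 26 such genes with a symbol on the array, 23 were tested, 12 fell and 0 rose by limma, where 30.4% of all genes fell and 14.0% rose. At an unadjusted limma p under 0.05 there were 1 rise and 12 falls, a threshold at which shares of all genes were not worked out. In the galactose and pentose group 3 of 7 fell: xyl1, the xylose reductase gene, gal7, the galactose-1-phosphate uridylyltransferase gene, and lad1, the arabinitol dehydrogenase gene, which had no probe measured on either wild-type array and 1 on each AT01 array, so that detection ran against its call. Of these gal7 stood at -1.85 and -1.94 in the wild type and at -2.28 and -2.28 in AT01, a difference of -0.39 ± 0.12 (limma adjusted p = 0.0434). For gal7 too detection ran against the call, with 1 and 2 probes measured in the wild type and 3 and 4 in AT01. Its call was lost with a common lower limit (-0.30, limma adjusted p = 0.125) and with quantile normalization (-0.32, adjusted p = 0.121). The galactokinase gene gal1 (-0.12 ± 0.16, adjusted p = 0.548) and the epimerase gene gal10 (-0.02 ± 0.12, adjusted p = 0.889) were not called. The gene lxr1, with 5 probes measured on every array, lay higher in AT01 but was just short of a call (0.76 ± 0.25, limma adjusted p = 0.0510). The median log2 difference of the 7 was -0.12.

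Of 3 regulator genes xyr1 fell from -1.41 and -1.22 to -2.14 and -2.04, a log2 difference of -0.77 ± 0.13 (limma adjusted p = 0.00888), and cre1 and ace1 were not called (median of the 3 -0.23). Of 13 tested genes of other plant polysaccharide hydrolases and accessory proteins 8 fell (median -0.47): the cellulase genes cel5a, cel1a, cel7b, cel12a and cel7a, the polysaccharide monooxygenase gene cel61a, the acetyl xylan esterase gene axe2, and cip1, whose product has a cellulose-binding module. For cel12a, as for lad1 and gal7, detection ran against the call, with no probe of cel12a measured in the wild type and 1 on each AT01 array. It leaned the same way for cel1a (1 and 0 probes in the wild type, 1 and 1 in AT01) and cel7b (0 and 1 against 1 and 1). For xyr1 it was 3 and 2 against 4 and 2. The falls of axe2 and cip1 were -0.43 ± 0.12 (limma adjusted p = 0.0299) and -0.76 ± 0.12 (adjusted p = 0.00850). With a common lower limit 5 of the 12 falls were called, xyl1, xyr1, cel5a, axe2 and cel61a, where 14.9% of all genes fell. With quantile normalization the falls of xyl1, xyr1 and cel61a were called, and lxr1 and cel61b rose, at 0.98 and 0.49, where 9.09% of all genes fell and 14.2% rose.

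**Figure D4:**
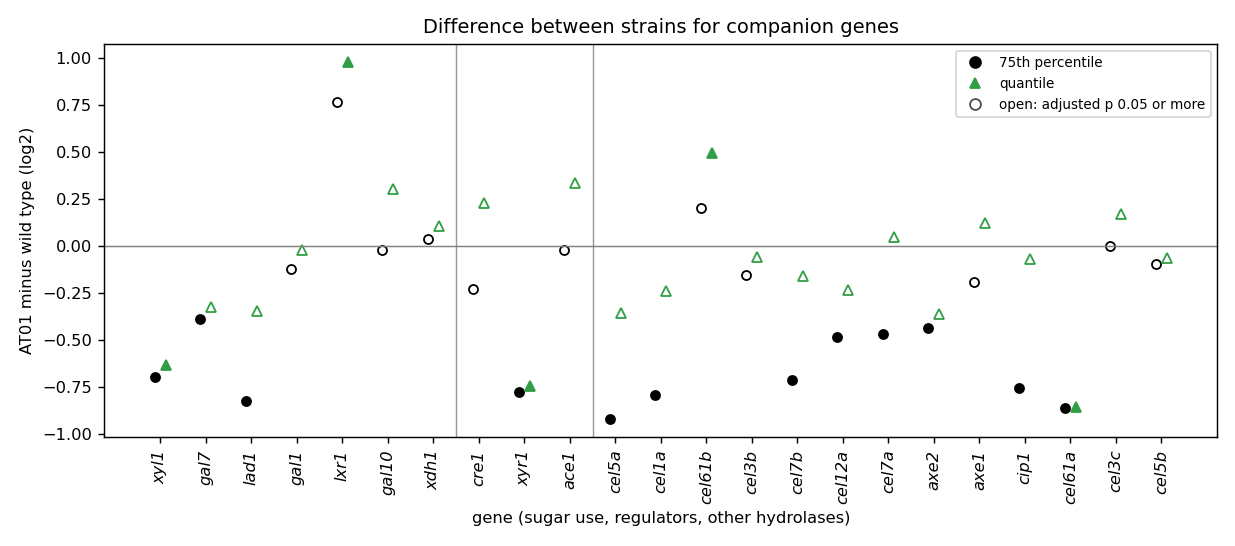
AT01 minus wild type (log2) for 23 tested genes of galactose and pentose use, regulation and other polysaccharide hydrolysis, with 75th percentile scaling (black) and quantile normalization (green), filled where the adjusted p was under 0.05. Black filled points all lie below 0, and 5 green points are filled, xyl1, xyr1 and cel61a below 0 and lxr1 and cel61b above it.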

How the data were processed

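Arrays of 1 colour were read with Agilent Feature Extraction, version 10.5.1.1 in the submitters' processing notes. Each deposited file gives, per the file headers, linear intensity values (a background-subtracted processed signal and raw medians) and spot flags. The authors' deposited value table held log2 values, to judge by its fit to the log2 processed signals (Pearson's r across probes 0.993 to 0.996 for the 4 arrays). Its column medians were 4.31, 4.31, 4.31 and 4.31, it covered 16 of the 50 member probes, and how it was normalized between arrays is not given in the sources used here.

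Here log2 processed signals were scaled to each array's 75th percentile, without control or outlying spots (0 of the latter among member probes on every array), and averaged per gene. Strains were compared with limma 3.58.1 (lmFit, eBayes; R 4.3.3), tested on simulated data. With 2 arrays per strain, their number limits precision. Locus numbers were matched to those of the QM6a v2.0 reference table for 99.4% of genes, by number only, so no coordinates are given. Members, companion lists and settings were chosen with earlier results of these data known. Named were every member, the called companions with gal1, gal7, gal10 and xyr1, and the 3 likest genes of each called member; cre1, ace1, lxr1 and cel61b were named after their values were seen. A gene of the companion lists is not reported here. Alternatives changed the scaling, background, lower limit, probes, filter, prior variance, arrays or block, or used the authors' table. The files used here give no mean signal, so normexp (offset 50) took the median signal.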

Additional observations from a re-analysis of the deposited data

How the results depend on the processing

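The 4 falls and 0 rises among the members were the same in number with the percentile over detected probes, with genes measured on all 4 arrays, with the replicate block, with a trended and robust prior and without the brightest probe of ASTRICH55999. Of all genes 19.6%, 32.6%, 33.0%, 32.0% and 30.4% fell in these settings, in that order. Numbers do not say which genes. The falls numbered 6 with no filter, 5 with normexp (ASTRICH124016 among them, at -0.19), 3 in the authors' deposited table and 3 over probes well above background, where 33.6%, 54.5%, 14.7% and 20.8% of all genes fell. Those with no filter included man1 (-0.57) and ASTRICH27219 (-0.75), both too dim to test. Their scaled values fell as the lower limit itself did, and no change is read from them. The falls numbered 2 with the brightest probe (30.7% of all genes fell), 2 with the common lower limit (14.9%) and 2 over probes well above background scaled on detected probes (14.0%). Over probes well above background with quantile normalization they numbered 1 (12.3%). By limma they numbered 0 with quantile normalization (9.09%), cyclic loess (9.68%) or no scaling (0.848%). With an array left out the 4 called members kept log2 differences below 0, from -1.21 to -0.51. Rises numbered 1, ASTRICH72632 at 1.0, over probes well above background scaled on detected probes, where 17.3% of all genes rose. That value rests on a probe unmeasured in the wild type. Without scaling they numbered 2, ASTRICH72632 and ASTRICH124016, where 68.8% of all genes rose. Probes fitted one by one gave 1 rise (probe 3 of ASTRICH72632) and 4 falls, where 15.2% of all probes rose and 17.2% fell. With quantile normalization they gave 0 and 1, where 14.2% rose and 8.52% fell.

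Without scaling the median of all genes was 0.69, since the AT01 arrays were brighter, and signs turned for ASTRICH27259 (0.35), ASTRICH59391 (0.16), bga1 (ASTRICH80240, 0.26) and ASTRICH124016 (0.59). ASTRICH124016 also turned positive, uncalled, with the common lower limit (0.035), the brightest probe (0.13), the authors' table (0.29) and over probes well above background (0.22, 0.34 scaled on detected probes, 0.20 with quantile normalization). ASTRICH72632 turned negative, uncalled, with its brightest probe (-0.040), with normexp (-0.12), and without wild-type array 1 (-0.08) or AT01 array 2 (-0.14), ranging from -0.14 to 0.41 with an array left out. The medians of all genes were -0.23 with 75th percentile scaling, -0.08 after the common limit and -0.01 after quantile normalization. Causes other than these constructions were not tested.

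Companion genes gave 12 falls and 0 rises, where 30.4% of all genes fell and 14.0% rose. Brackets below give the shares of all genes that fell and rose. The percentile over detected probes gave 8 and 1 (19.6% and 16.5%), and genes measured on all 4 arrays 8 and 1 (32.6% and 14.7%). The authors' table gave 6 and 3 (14.7% and 14.9%), the brightest probe 6 and 0 (30.7% and 10.1%), and the common limit 5 and 0 (14.9% and 14.0%). Cyclic loess gave 4 and 2 (9.68% and 14.8%), and quantile normalization 3 and 2 (9.09% and 14.2%). Normexp gave 16 and 2 (54.5% and 10.2%), and no scaling 0 and 15 (0.848% and 68.8%). Probes well above background gave 6 and 0 (20.8% and 14.4%). Scaled on detected probes they gave 3 and 0 (14.0% and 17.3%), and with quantile normalization 4 and 0 (12.3% and 14.8%). The replicate numbers in the labels did not pair the arrays (correlation of same-numbered deviations across genes 0.01). With the replicate block the members gave 4 falls and 0 rises and the companions 11 falls and 1 rise, where 33.0% of all genes fell and 14.1% rose.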
